A study of Mus musculus with 24 samples.

Results

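Gene expression in mouse fibroblasts under an iron-manganese alloy was compared with the sum of the changes under pure iron and pure manganese. All 24 arrays of the study entered, sorted into 4 groups of 6 by the metal that each title names, and 13556 genes measured above background were examined. The study exposed BALB/3T3 clone A31 cells, 1 clonal fibroblast line from embryos of BALB/c mice, to metal powders held in culture inserts above the cell layer for 24 h. The groups were Fe-35Mn alloy powder at 5 mg/ml, pure manganese at 0.5 mg/ml, pure iron at 3.25 mg/ml, and a control without metal (0 mg/ml). RNA from each was hybridised to Illumina mouse bead arrays. The titles call the 6 arrays of a group technical replicates, so p-values measure the spread between arrays, which may be technical.

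Read as a mass percentage, the 35 of Fe-35Mn means that 5 mg/ml of alloy powder contains 3.25 mg/ml of iron, the same as the pure iron dose. It then contains 1.75 mg/ml of manganese, 3.5 times the pure manganese dose. The sum of the single metals is therefore no prediction for matched doses. Dose, the form of the metal and the combination of metals cannot be told apart in these 4 groups.

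For each gene the departure is the alloy change minus the iron change minus the manganese change, each change being a difference in mean log2 intensity from control. A departure above 0 means that the alloy level lay above the level which the summed changes give, and a departure of 1 is a 2-fold gap. Adding log2 changes multiplies folds, so a gene without a departure is one whose alloy fold equals the product of the 2 single folds. Departures were tested with limma over all 24 arrays, two-sided, with Benjamini-Hochberg adjustment over all genes at 0.05.

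Several textbook pathways connect these metals to transcription. Iron regulatory proteins stabilise the mRNA of the transferrin receptor when cells are short of iron and block translation of ferritin. The prolyl hydroxylases that mark hypoxia-inducible factors for destruction need ferrous iron. Oxidants and electrophiles release the transcription factor NRF2 (gene Nfe2l2) from its inhibitor KEAP1, and haem relieves repression of some of the same targets by BACH1. Manganese ions are known to sensitise the cGAS-STING pathway, which senses cytosolic DNA and induces type I interferon and, through it, the interferon-stimulated genes.

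The arrays had median raw intensities of 61.6 to 75.3, and 36.7% to 45.5% of probes lay above background. Alloy replicate 4 stood apart in signal, with both lowest values and a mean raw intensity of 352 against 508 to 588 on the other arrays. The fibroblast label was borne out by 11 of 14 fibroblast markers, each above background on all arrays of every group. Col1a1, Lum and Postn had no kept probe with an annotated symbol. Of the markers of other cell types, 5 of 13 macrophage, 3 of 10 endothelial, 4 of 10 epithelial, 2 of 10 skeletal muscle and 1 of 9 adipocyte genes were kept, and 0 of these 15 departed from the sum. Above background on all control arrays were 3 macrophage, 0 endothelial, 4 epithelial, 1 skeletal muscle and 1 adipocyte marker. Defining markers such as Ptprc, Pecam1, Epcam, Myod1 and Adipoq had no kept probe with an annotated symbol. Whether low signal or missing annotation left a marker out was not tested, so their absence is no measure of expression. In RNA from whole cultures, fewer cells of a type and less RNA per cell cannot be told apart. The alloy arrays were less alike than the others: on the first principal component, which held 75.4% of the variance, they scored 9.42 to 48.4 (mean 26.8 ± 14.6), against 24.0 ± 1.56 in manganese, -25.3 ± 0.56 in iron and -25.6 ± 0.11 in control arrays (SD, n = 6 each). The median SD of a gene was 0.144 in alloy, 0.0836 in manganese, 0.0768 in iron and 0.0761 in control arrays. Alloy replicates 1, 3 and 4 scored highest on that component, and values without those 3 arrays are given for part of the genes and lists. Those 3 arrays were set apart on these same data, so calls and p-values without them are a description and no added support.

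Most genes under the alloy lay close to the sum, and the departures that passed the test were small. Of 13556 genes 697 (5.14%) passed, 338 (2.49%) above the sum and 359 (2.65%) below it, and 2761 had an unadjusted p under 0.05. Those above had a median departure of 0.39 (1.31-fold) and those below one of -0.35 (1.28-fold lower). At least 1.5-fold was reached by 65 genes above and 44 below, and at least 2-fold by 12 and 10. All 6 alloy arrays lay on the same side of the sum for 335 of the 338 genes above and 345 of the 359 below, against 22.6% of all genes. The test that chose these genes used the same arrays and sum, so these counts are a description and no added support. Median scaling in place of quantile normalisation left 159 calls, and no normalisation 64. Without alloy replicates 1, 3 and 4 there were 1475 calls (685 above, 790 below), 534 of them among the 697. Without alloy replicate 4 alone there were 726. Of the 49 named genes past the test, 31 had a departure smaller by over 1.5 times in the authors' normalized probe table, and 0 a larger one by as much.

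Genes with large summed changes departed more often than genes at large, though most by less than 1.5-fold. Of 570 genes whose sum was at least 2-fold from control, 91 (16%) passed the departure test, against 5.14% of all genes. Of the 570, 491 departed by less than 1.5-fold. Their median absolute departure was 0.22, against 0.10 over all genes, and their median absolute sum 1.32 on the log2 scale. For comparison, the median absolute change over all genes was 0.17 with the alloy, 0.16 with manganese and 0.05 with iron.

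**Figure D1:**
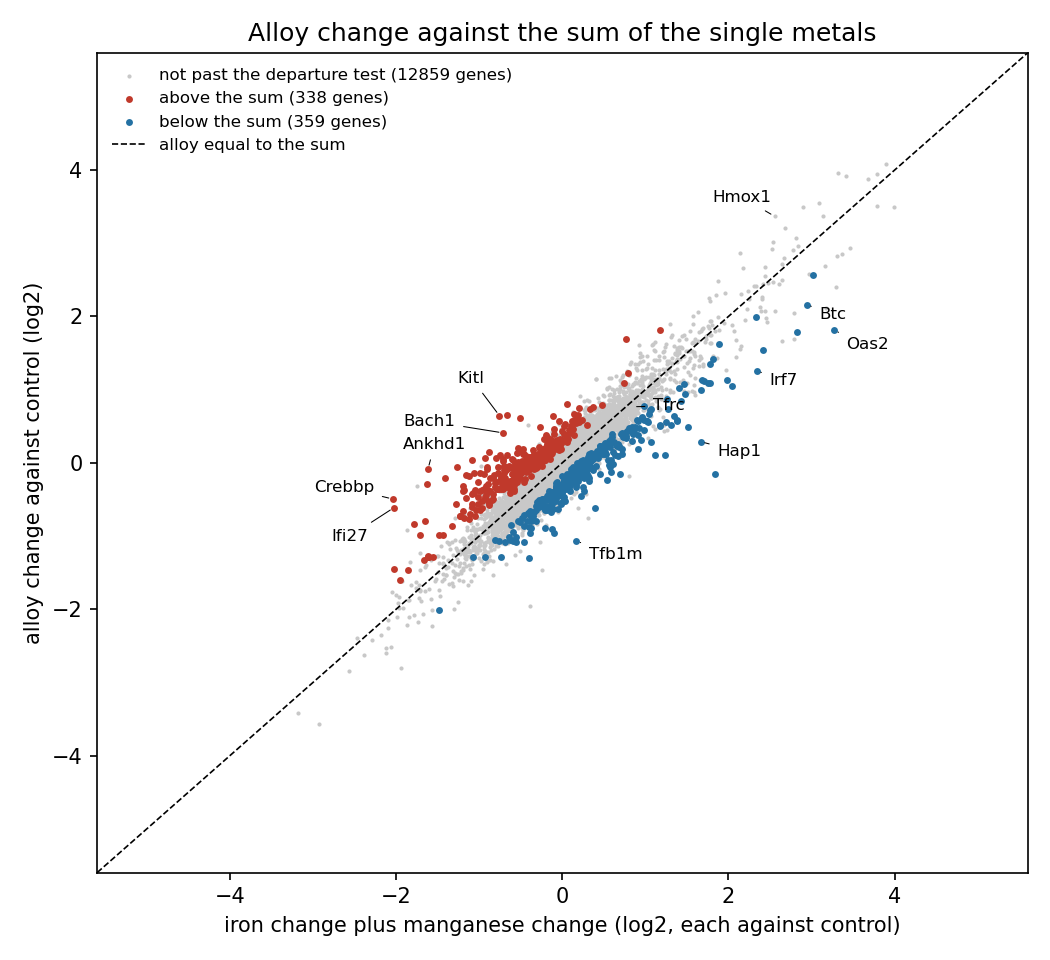
Each point is 1 of 13556 genes: the horizontal axis is the iron change plus the manganese change and the vertical axis the alloy change, both as log2 differences from control, and the dashed line marks equality. Red points (338) passed the departure test above the sum, blue points (359) below it, and gray points (12859) did not pass. Oas2, Irf7, Hap1 and Btc lie below the line on the right, and Crebbp, Ankhd1 and Ifi27 above it on the left.

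The departures fell into 3 positions relative to control. In 303 of the 697 genes the alloy level lay nearer to control than the sum did, 176 of them genes whose sum was below control. In 138 genes the alloy level lay further from control, 104 of them downward. In the other 256 the alloy level and the sum lay on opposite sides of control, in equal numbers each way. Manganese passed the test against control in 53.1% of all genes and the alloy in 54.9%. Among the 332 departing genes where both did, 201 were nearer to control than the sum and 22 lay on the other side.

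The single-metal means of the departing genes are given as a description, since both are subtracted in the departure that chose the genes. Of the 338 genes above the sum 307 (90.8%) had a lower mean with iron than in control and 283 a lower mean with manganese, with median changes of -0.01 with the alloy, -0.30 with manganese and -0.14 with iron. Of the 359 below the sum 293 had a higher mean with iron and 225 with manganese, with medians of -0.14, 0.11 and 0.06 in the same order of groups. Among all 13556 genes the mean was lower with iron in 6440 (47.5%) and higher in 7116. With manganese it was lower in 6769 and higher in 6787. In 340 of the 697 genes the departure was over 4 times as large as the iron change. Iron itself passed the test against control for 22 of the 697 genes, and 31 of all genes (0.229%). Of the 697 genes, 583 also passed the direct test of alloy against manganese in the same direction, which 14.5% of all genes passed in either direction. Alloy minus manganese is part of the departure that chose the genes, so this overlap is a description too.

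The genes were also described as 34 lists by function, against shares of 2.49% above and 2.65% below the sum over all genes. Interferon-stimulated genes had 14 of 54 measured members below the sum and 1 above (median departure -0.40), against a median of -0.02 over all genes. NRF2 targets had 8 of 35 above and 0 below (median 0.30). Hypoxia response genes had 6 of 27 below and 0 above (median -0.23). Cholesterol genes had 4 of 21 above and 0 below (median 0.14). Enzymes that modify or remodel chromatin went both ways, with 8 of 58 above and 3 below (median 0.01).

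**Figure D2:**
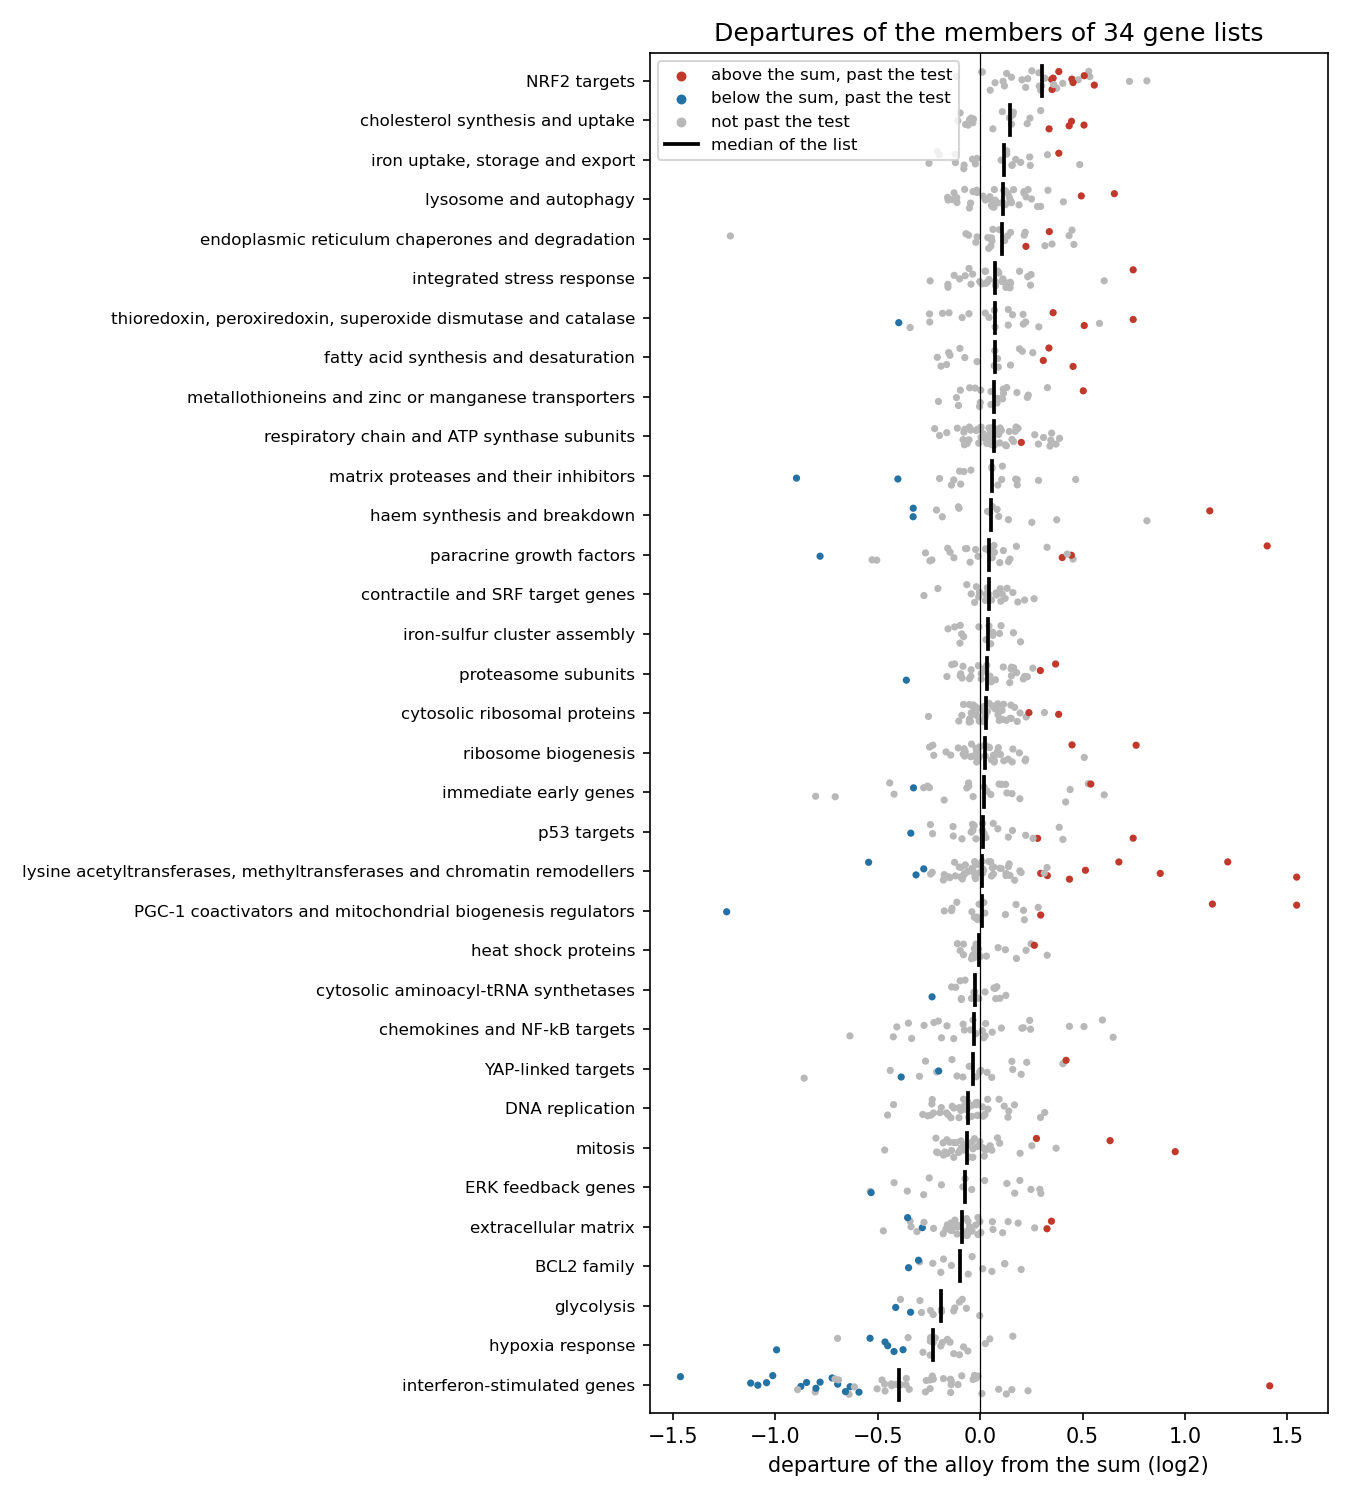
Each small point is the log2 departure of 1 measured gene in the list named on the left, coloured by whether it passed the test above or below the sum, and the vertical tick is the list median. The medians run from -0.40 for interferon-stimulated genes to 0.30 for NRF2 targets, with most lists within 0.15 of 0.

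Of the interferon-stimulated genes 14 fell short of the sum, and most of the others had departures under 0. Their median change was 0.95 with the alloy, 1.29 with manganese, -0.02 with iron and 1.36 as a sum. Of the 54 measured, 48 had a departure under 0, and 25.9% passed below the sum against 2.65% of all genes. Those 14 genes comprise RNA sensors and their effectors, a transcription factor, antigen-processing and class I genes, and 3 further interferon-induced genes.

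The promoters of 3 of the 14 hold an interferon-stimulated response element, the site at which interferon-activated factors bind, within 250 bases before to 50 after the start of transcription. These are shown because the sequence is the common feature through which this gene class is known to respond. The element was searched as GAAA, any 2 bases and GAAA, on both strands, and a match is a description of the letters only. Over the whole list 20 of 41 measured genes with a promoter sequence held it, against 3 of 11 among the genes below the sum. Promoter sequences are those of RefSeq on GRCm38.p6, which covered 11 of the 14 genes, and capitals mark the match.
Eif2ak2, chr17:78882523-78882582, minus strand: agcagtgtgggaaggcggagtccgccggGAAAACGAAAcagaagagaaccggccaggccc
Oas1a, chr5:120907511-120907570, minus strand: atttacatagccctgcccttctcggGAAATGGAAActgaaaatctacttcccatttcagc
Oas1g, chr5:120887597-120887656, minus strand: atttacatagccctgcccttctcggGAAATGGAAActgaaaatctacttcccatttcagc
The match begins 18 bases after the start in Eif2ak2, 20 before it in Oas1a and 18 before it in Oas1g, and the windows of the 2 Oas1 paralogues are identical over their 60 bases. Over all genes below the sum with a promoter sequence, 29 of 343 (8.45%) held this element, against 7 of 266 (2.63%) above the sum, 3.03% of genes tested and 3.44% of all 32851 promoters.

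Among the sensors and their effectors, Oas2, an oligoadenylate synthetase that activates RNase L on double-stranded RNA, stood furthest below the sum. Its log2 level was 8.66, 8.85 and 10.29 (lowest, median, highest) on the 6 alloy arrays, 10.64, 10.71 and 10.86 on manganese, 7.11, 7.22 and 7.53 on iron and 7.16, 7.32 and 7.60 on control arrays. On every alloy array it was above all iron and control arrays and below all manganese arrays. The departure was -1.46 (95% interval -2.01 to -0.92), a 2.76-fold gap (limma adjusted p = 0.0015). Dhx58, a relative of the RNA sensor RIG-I, departed by -0.88 (adjusted p = 0.022), with changes of 1.54 with the alloy, 2.38 with manganese and 0.04 with iron. Eif2ak2, the double-stranded RNA kinase PKR, departed by -0.64 (adjusted p = 0.00163), and its alloy arrays of 11.26 to 11.97 did not reach the manganese arrays of 12.08 to 12.17. Oas1a (-0.85) and Oas1g (-1.04), further oligoadenylate synthetases, and Ifi35 (-0.59) were below the sum on 5 of 6 alloy arrays, the highest alloy array of Oas1a and of Oas1g falling in the manganese range. Oas1a and Oas1g are near-identical copies whose probes may share signal.

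Irf7, the transcription factor that amplifies type I interferon production, had log2 levels of 7.76, 7.99 and 9.31 on alloy, 9.13, 9.22 and 9.29 on manganese, 6.84, 7.08 and 7.25 on iron and 6.72, 7.01 and 7.13 on control arrays. Alloy replicate 3 stood above the manganese arrays and the other 5 stayed below them. The departure was -1.09 (95% interval -1.58 to -0.59; limma adjusted p = 0.00889).

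Genes of antigen processing and presentation were among the members whose alloy level lay closest to control. Psmb8, Psmb9 and Psmb10, the catalytic subunits that convert the proteasome into the immunoproteasome, had alloy means 0.19, 0.11 and 0.29 above control, against changes of 0.93, 1.16 and 0.94 with manganese. Their departures were -0.72, -1.12 and -0.78 (limma adjusted p = 0.00859, 0.00667 and 0.00159). Outside the interferon list, Psme1, the PA28 alpha activator of that proteasome, departed by -0.36 (adjusted p = 0.00956), with alloy arrays at 12.96 to 13.49 and control arrays at 13.01 to 13.13. By contrast the standard catalytic subunit Psmb5 and the activator Psme4 lay above the sum, by 0.37 and 0.29. The class I heavy chains H2-K1 and H2-D1, which present peptides to T cells, departed by -0.80 (adjusted p = 0.0193) and -0.70 (adjusted p = 0.00894). H2-T10, a non-classical class I gene that is not in the list, was 10.00, 10.22 and 11.20 on alloy, 11.07, 11.16 and 11.24 on manganese, 10.49, 10.55 and 10.66 on iron and 10.40, 10.54 and 10.64 on control arrays. Its alloy median was thus the lowest of the 4 groups, and it departed by -0.84 (adjusted p = 0.00642).

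Ly6e, a membrane protein induced by interferon, had log2 levels of 11.70, 11.91 and 12.58 on alloy, 12.90, 12.93 and 13.00 on manganese, 11.50, 11.55 and 11.59 on iron and 11.42, 11.49 and 11.56 on control arrays. No group overlapped manganese, and the departure was -1.01 (95% interval -1.28 to -0.74; limma adjusted p = 4.91e-05). A further probe of Ly6e gave -1.16. Lgals3bp, a secreted glycoprotein, departed by -0.66 (adjusted p = 0.0188). The chemokine Cxcl10 (-0.27, 95% interval -1.46 to 0.91) and Ifit3 (-0.89, adjusted p = 0.0851), both classical interferon-induced genes, did not pass.

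Ifi27 was the exception within the list. It encodes a mitochondrial membrane protein and is usually counted among interferon-induced genes, yet it was lower with manganese by 2.0. Its log2 levels were 11.42, 11.92 and 12.10 on alloy, 10.41, 10.45 and 10.58 on manganese, 12.38, 12.44 and 12.51 on iron and 12.41, 12.49 and 12.52 on control arrays. Without overlap, its alloy arrays stood between the manganese and the control arrays. The departure of 1.41 (95% interval 1.2 to 1.63) had an adjusted p of 6.72e-09 in limma, and a second probe gave 1.37. Like the 14 genes below the sum, Ifi27 was thus nearer to control with the alloy than with manganese.

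**Figure D3:**
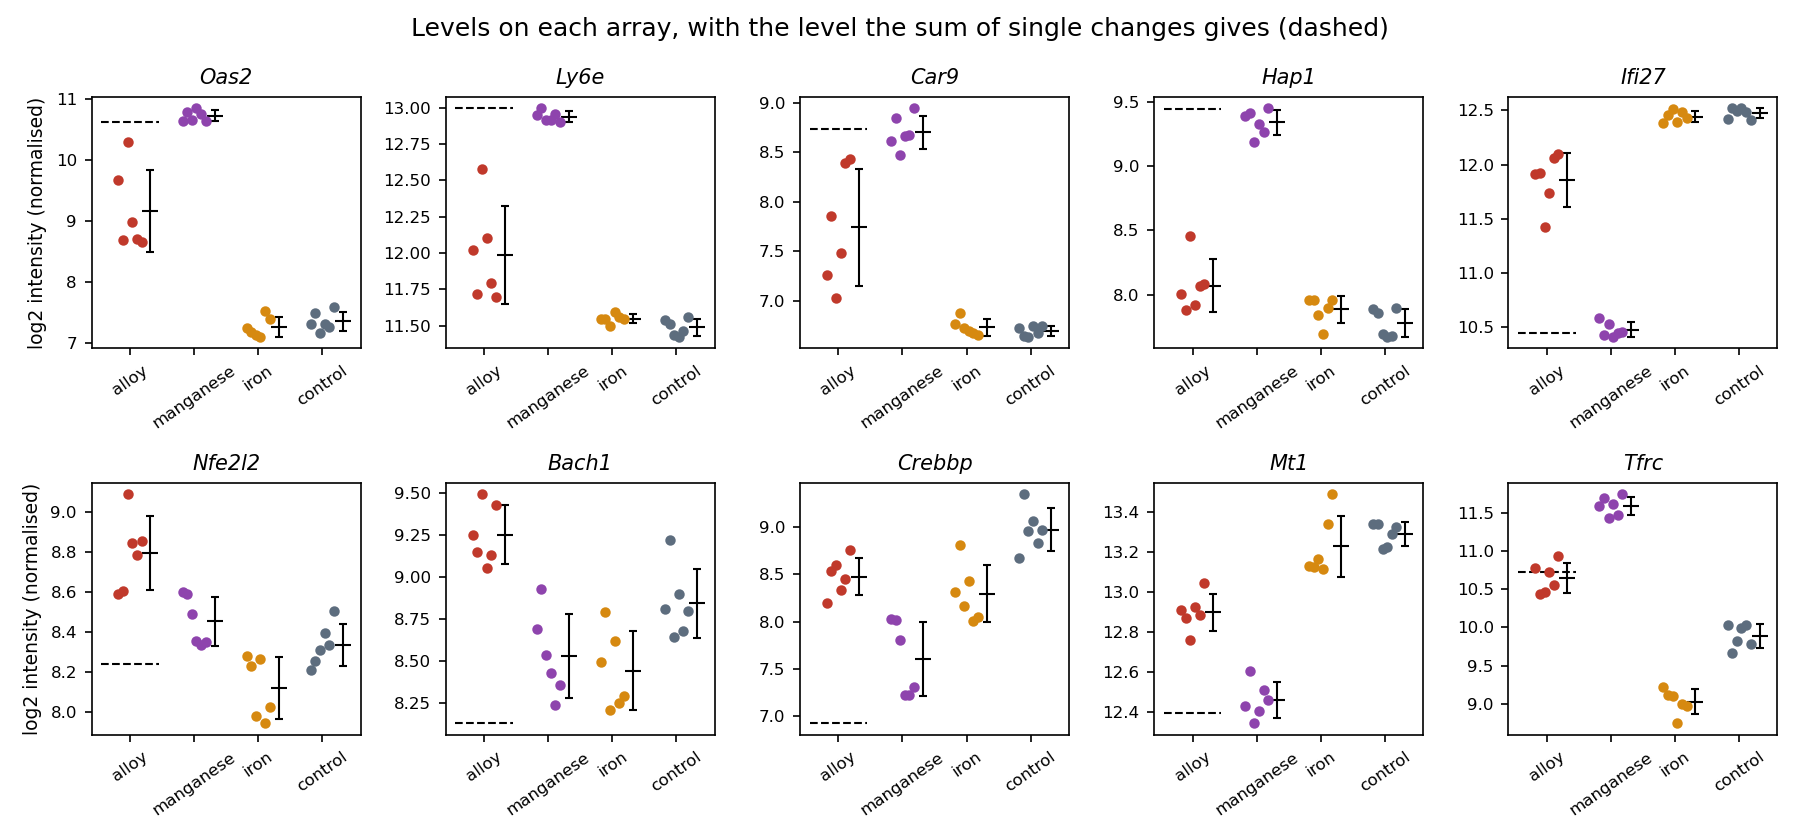
Normalised log2 intensity of 10 genes on each array (points), with the mean and SD of each group of 6 beside them, and as a dashed line over the alloy group the level that the sum of the single changes gives. All 6 alloy points lie below the dashed line for Oas2, Ly6e, Car9 and Hap1 and above it for Ifi27, Nfe2l2, Bach1, Crebbp and Mt1, while those of Tfrc straddle it.

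The alloy arrays differed among themselves in the interferon response. The list mean, as a log2 difference from control, was 1.47, 0.66, 2.04, 1.03, 0.68 and 0.71 on alloy replicates 1 to 6, against 1.47 to 1.56 on manganese arrays and 1.5 as the sum. Replicate 3 exceeded every manganese array and replicates 2, 4, 5 and 6 lay under all of them. Without alloy replicates 1, 3 and 4, 49 of 54 interferon-stimulated genes were below the sum (median -0.90), against 790 of all 13556 genes. Without replicate 3 alone there were 32. Replicates 1, 3 and 4 had the highest list means of the alloy arrays, so leaving them out lowers the alloy mean. Without those 3 arrays Oas2 departed by -1.95, Irf7 by -1.52, Cxcl10 by -1.47 (adjusted p = 7.67e-10 in limma) and Ifit3 by -1.51 (adjusted p = 2.08e-09). When each group kept its own spread, 2 interferon-stimulated genes passed below the sum, and Oas2, Irf7, Dhx58, H2-T10 and H2-K1 lost the call.

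**Figure D4:**
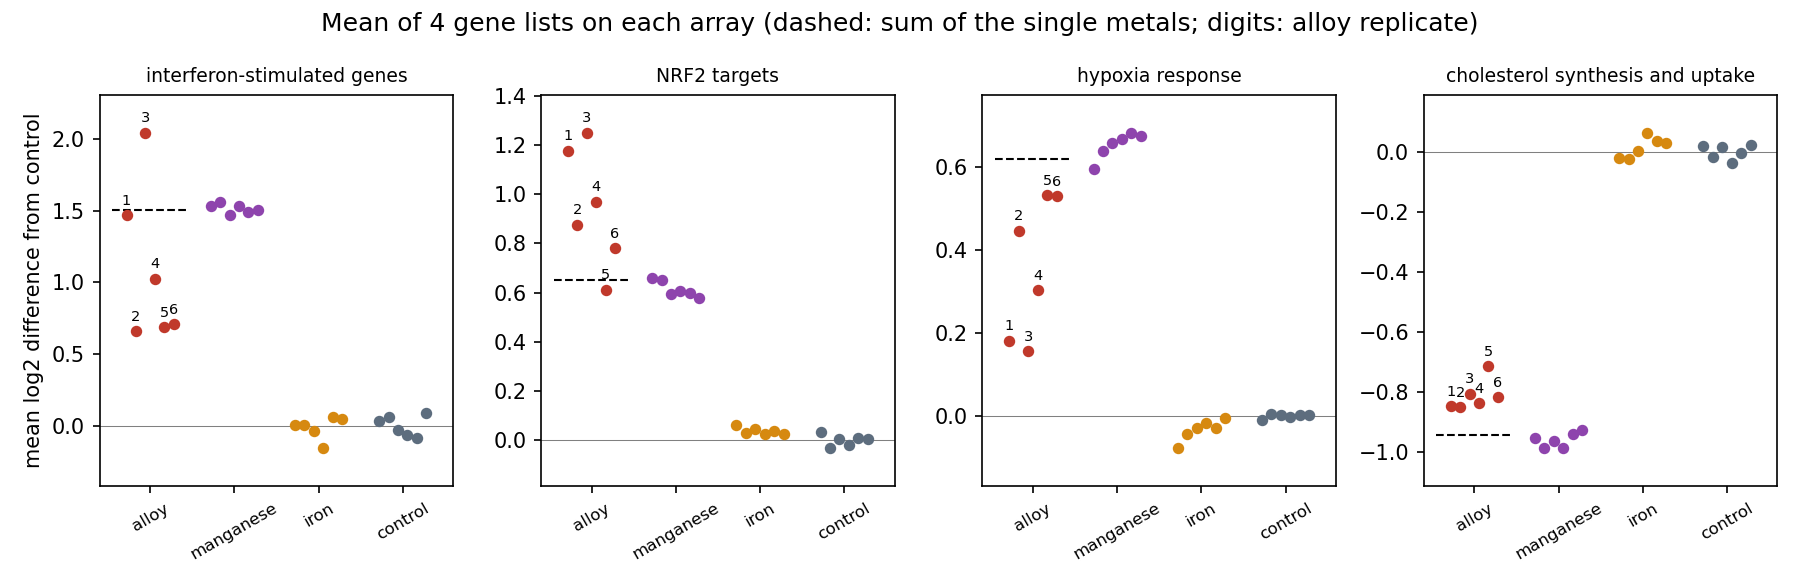
Mean log2 difference from control over the measured members of 4 gene lists on each array, with the alloy replicate number beside its point and the sum of the single metals as a dashed line. Interferon-stimulated genes run from 0.66 to 2.04 over the alloy arrays around a sum of 1.5, and NRF2 targets and hypoxia genes are also spread over the alloy arrays, whereas the cholesterol genes lie between -0.85 and -0.71.

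Of the NRF2 targets 8 lay above the sum. Their median change was 0.59 with the alloy, and 33 of 35 had a departure above 0, Gstm2 (-0.36) and Gstp1 (-0.12) being the exceptions. In 8 of them (22.9%, against 2.49% of all genes) the departure passed the test, and 0 passed below.

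The promoters of 3 of these 8 hold an antioxidant response element, at which NRF2 binds with small MAF proteins, and are shown because NRF2 is known to act through it. The element was searched as TGACNNNGC on both strands, 7 of the 8 genes had a promoter sequence, and capitals mark the match. Over the whole list 9 of 29 held it.
Nfe2l2, chr2:75704854-75704913, minus strand: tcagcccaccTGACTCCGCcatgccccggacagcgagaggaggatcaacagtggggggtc
Prdx1, chr4:116685441-116685500, plus strand: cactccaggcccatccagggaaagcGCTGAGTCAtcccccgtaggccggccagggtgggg
Me1, chr9:86695886-86695945, minus strand: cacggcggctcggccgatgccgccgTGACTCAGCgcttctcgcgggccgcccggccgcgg
In Prdx1 the match is on the reverse strand. Counted from the start of transcription the match begins 240 bases before it in Nfe2l2, 133 before it in Prdx1 and 6 before it in Me1. Over all genes above the sum, 55 of 266 promoters (20.7%) held the element, against 44 of 343 (12.8%) below the sum, 13.9% of the promoters of genes tested and 12.4% of all promoters.

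Nfe2l2, the gene of NRF2 itself, was 8.59, 8.81 and 9.09 on alloy, 8.34, 8.42 and 8.60 on manganese, 7.94, 8.13 and 8.28 on iron and 8.21, 8.32 and 8.51 on control arrays. The alloy arrays lay above all iron and control arrays and met the highest manganese array. The change was 0.46 with the alloy, whereas manganese (0.12) and iron (-0.22) did not pass against control, and the departure was 0.56 (95% interval 0.33 to 0.79; limma adjusted p = 0.00444). Prdx1, a peroxiredoxin that reduces hydrogen peroxide, and Txn1, the thioredoxin that recycles it, departed by 0.36 (adjusted p = 0.0114) and 0.51 (adjusted p = 0.0464). The other probe of Txn1 gave -0.04.

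Among NRF2 targets for detoxification and export, Nqo1, a quinone reductase, departed by 0.35 (limma adjusted p = 0.0389), the carbonyl reductase Cbr3 by 0.35 (adjusted p = 0.0182) and Abcc1, which exports glutathione conjugates, by 0.45 (adjusted p = 0.0162). Me1, a malic enzyme that supplies NADPH, departed by 0.45 (adjusted p = 0.0357). Nqo1 changed by 1.09 with the alloy, 0.66 with manganese and 0.08 with iron, and its call ended in 15 of 24 omissions of 1 array. Slc7a11 (0.23), the cystine importer, Srxn1 (0.29), Txnrd1 (0.22) and Gclm (0.53, adjusted p = 0.103), which acts in glutathione synthesis, did not pass. Separate spreads by group left 2 NRF2 targets past the test, and median scaling and no normalisation each left 0, although their median departures of 0.24 and 0.23 were little lower. Without alloy replicates 1, 3 and 4, 5 of 35 passed above the sum, against 685 of all 13556 genes. The median of NRF2 targets was then 0.12, with Nqo1 at 0.21 (adjusted p = 0.126) and Nfe2l2 at 0.51 (adjusted p = 0.00153).

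Haem and iron genes showed no common direction. Bach1, the haem-sensing repressor of many NRF2 targets, had the largest departure of these lists. Its levels were 9.06, 9.20 and 9.49 on alloy, 8.24, 8.48 and 8.93 on manganese, 8.21, 8.39 and 8.79 on iron and 8.64, 8.81 and 9.22 on control arrays. The alloy arrays lay above all manganese and iron arrays, with medians of both single metals under that of control. The departure was 1.12 (95% interval 0.79 to 1.46; limma adjusted p = 0.000175), with changes of 0.41 with the alloy and -0.31 with manganese, while iron (-0.40) did not pass. The haem synthesis enzymes Uros and Ppox both departed by -0.33 (adjusted p = 0.0123 and 0.0238).

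Hmox1, the haem oxygenase that BACH1 represses and NRF2 induces, was 11.20, 12.62 and 13.93 on alloy, 11.28, 11.51 and 11.85 on manganese, 9.36, 9.38 and 9.47 on iron and 9.07, 9.16 and 9.36 on control arrays. The alloy arrays spanned both sides of the manganese range, and the departure of 0.81 (95% interval 0.02 to 1.61) did not pass (limma adjusted p = 0.235). It was -0.05 without alloy replicates 1, 3 and 4, which had 13.25, 13.93 and 13.09. It passed with the sum taken on linear intensities (0.98, adjusted p = 0.0381) and without alloy replicate 5.

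Tfrc, the transferrin receptor for iron uptake, moved in opposite directions with the single metals and ended near their sum. Its levels were 10.44, 10.64 and 10.93 on alloy, 11.43, 11.60 and 11.74 on manganese, 8.74, 9.05 and 9.22 on iron and 9.66, 9.90 and 10.04 on control arrays. None of the 4 groups overlapped. The departure was -0.08 (95% interval -0.33 to 0.18; limma adjusted p = 0.769), and the second probe gave -0.07. This placement depended on the scale: with the sum taken on linear intensities the departure of Tfrc was -0.73 (adjusted p = 6.54e-05), and in the authors' normalized probe table -0.34 (adjusted p = 0.0247). The ferritin light chain Ftl1 departed by 0.38 (adjusted p = 0.046, and 0.144 without alloy replicates 1, 3 and 4), and its call ended in 20 of 24 omissions of 1 array. The heavy chain Fth1 departed by 0.13 (adjusted p = 0.25). Ftl1 was the single member of 22 iron uptake, storage and export genes to pass. The iron exporter Slc40a1 gave 0.24 (adjusted p = 0.0987) on one probe and 0.67 on the other. Of 16 iron-sulfur cluster assembly genes 0 passed.

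Mt1, a metallothionein that binds zinc and copper, was 12.76, 12.90 and 13.05 on alloy, 12.35, 12.45 and 12.61 on manganese, 13.12, 13.15 and 13.49 on iron and 13.22, 13.31 and 13.34 on control arrays. Manganese was below the alloy arrays and the other 2 groups above them, without overlap. The departure was 0.50 (95% interval 0.33 to 0.68; limma adjusted p = 0.000873), and it lost the call with median scaling or no normalisation. Mt2 (-0.12), the zinc exporter Slc30a1 (0.11) and the zinc, iron and manganese importer Slc39a14 (0.13) did not pass.

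Of the hypoxia response genes 6 of 27 (22.2%) fell short of the sum, against 2.65% of all genes, and this count was 2 with median scaling, 1 with no normalisation and 2 with separate spreads by group. The list mean was 0.18, 0.45, 0.16, 0.30, 0.53 and 0.53 on alloy replicates 1 to 6, against 0.59 to 0.68 on manganese arrays and 0.62 as the sum, so that every alloy array lay under every manganese array. Car9, the surface carbonic anhydrase and a classical target of hypoxia-inducible factors, was 7.03, 7.67 and 8.44 on alloy, 8.48, 8.67 and 8.95 on manganese, 6.66, 6.71 and 6.88 on iron and 6.64, 6.70 and 6.75 on control arrays. No alloy array overlapped another group, and the departure was -0.99 (95% interval -1.46 to -0.52; limma adjusted p = 0.0114). Other probes of Car9 gave -0.64 and -0.46.

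The other called hypoxia genes were Ak4, a mitochondrial adenylate kinase (-0.42, limma adjusted p = 0.00208), Jmjd6, a lysyl hydroxylase that uses ferrous iron (-0.38, adjusted p = 0.000243), the procollagen hydroxylases P4ha2 (-0.45, adjusted p = 0.0275) and Plod1 (-0.46, adjusted p = 0.0341), and Ankrd37 (-0.54, adjusted p = 0.0441). Jmjd6 was 12.43 to 12.71 on alloy and 12.90 to 12.98 on manganese arrays. The angiogenic factor Vegfa departed by -0.15 (95% interval -0.33 to 0.04) and the glucose transporter Slc2a1 by -0.24 (adjusted p = 0.166), neither passing. Both passed without alloy replicates 1, 3 and 4, Vegfa at -0.26 (adjusted p = 0.0349) and Slc2a1 at -0.33 (adjusted p = 0.00946). In glycolysis, where 15 of 15 measured genes had departures under 0 (median -0.19), Tpi1 (-0.41, adjusted p = 0.0111) and Pgm1 (-0.34, adjusted p = 0.0188) passed. Without alloy replicates 1, 3 and 4, the median of the hypoxia response list was -0.07. In that setting 6 of 27 members lay below the sum, against 790 of all 13556 genes. Car9 then departed by -0.51 (adjusted p = 0.00597). Car9 lost the call when each group kept its own spread and with no normalisation.

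Genes of sterol and fatty acid synthesis, which SREBP transcription factors control, had 6 members that were lowered less by the alloy than by manganese, and Me1, which was higher than control with both. Sqle, the squalene epoxidase, was 11.20, 11.37 and 11.83 on alloy, 10.90, 11.13 and 11.15 on manganese, 11.94, 12.03 and 12.10 on iron and 12.10, 12.15 and 12.28 on control arrays. The alloy arrays lay above all manganese and under all iron arrays, and the departure was 0.51 (95% interval 0.28 to 0.73; limma adjusted p = 0.00742). Msmo1, a sterol methyl oxidase, departed by 0.45 (adjusted p = 0.00346), the farnesyl diphosphate synthase Fdps by 0.34 (adjusted p = 0.0482) and Insig1, which retains the SREBP complex in the endoplasmic reticulum, by 0.43 (adjusted p = 0.0182).

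In fatty acid synthesis the elongase Elovl6 departed by 0.34 (limma adjusted p = 0.0335) and the phosphatidate phosphatase Lpin1 by 0.31 (adjusted p = 0.0246), and Me1, in the same list, changed by 0.65 with the alloy and 0.25 with manganese. The call of Elovl6 ended in 11 of 24 omissions of 1 array. All 6 alloy arrays lay above the sum for each of these genes. Median scaling and no normalisation left 0 of the cholesterol synthesis and uptake genes past the test, and their list medians were 0.04 and 0.02 in place of 0.14. Sqle, Elovl6 and Lpin1 also lost the call with the sum taken on linear intensities, although their departures were larger there, at 0.69, 0.70 and 0.35.

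Several of the largest departures above the sum belonged to genes whose mean was under control with each pure metal, among them genes of chromatin enzymes and of nuclear and centrosomal proteins. Crebbp, the histone acetyltransferase CBP, was 8.19, 8.49 and 8.76 on alloy, 7.23, 7.56 and 8.03 on manganese, 8.0, 8.24 and 8.81 on iron and 8.67, 8.96 and 9.34 on control arrays. The alloy arrays lay above all manganese arrays and overlapped the iron and control arrays. Its changes were -0.50 with the alloy, -1.37 with manganese and -0.67 with iron, the last not past the test (adjusted p = 0.056), and the departure was 1.55 (95% interval 1.11 to 1.98; limma adjusted p = 0.00011). Other probes of Crebbp gave 0.00 and 1.41.

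Kat6a, the acetyltransferase MOZ, was 6.80, 6.98 and 7.21 on alloy, 6.54, 6.64 and 6.73 on manganese, 6.66, 6.71 and 6.86 on iron and 7.19, 7.25 and 7.47 on control arrays. It was lower by 0.32 with the alloy, and its change was -0.65 with manganese and -0.55 with iron, all past the test, so that the alloy median lay between those of the single metals and of control. The departure was 0.88 (95% interval 0.70 to 1.06; limma adjusted p = 1.17e-06). In the authors' normalized probe table the departure of Kat6a passed at a size of 0.14, so its size is uncertain.

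Other chromatin genes above the sum were the chromodomain remodeller Chd1 (1.21), the demethylase genes Kdm5a (0.68) and Kdm3b (0.33), the methyltransferase Nsd1 (0.44), the bromodomain protein Brd1 (0.51) and Ep300 (0.30), the paralogue of CBP. Kdm4b (-0.54), the SWI/SNF subunit Smarcc2 (-0.31) and Ep400 (-0.28) were below it. All 6 alloy arrays stood on the named side for each of these. The other probes of Kdm5a gave -0.17 and 0.12, those of Chd1 0.05 to 1.11, and that of Nsd1 0.00.

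Outside the chromatin list, means were also under control with both pure metals for Syne2 (1.33, limma adjusted p = 4.79e-06) and Syne1 (1.12), the nesprins that link the nucleus to the cytoskeleton, Ankhd1 (1.53), Cep295 (1.02) and Pcm1 (0.99) of the centrosome, and Wapl (0.95), which releases cohesin. Syne2 was 7.17, 7.28 and 7.57 on alloy, 6.29, 6.57 and 6.80 on manganese, 6.85, 6.92 and 7.34 on iron and 7.40, 7.52 and 7.95 on control arrays. The summed changes put it at 5.97, lower than any array of the 4 groups. In the authors' normalized probe table the departures of Syne2 and Pcm1 passed at smaller sizes of 0.23 and 0.15. Other probes of these genes differed, at 0.02 and 0.49 for Syne2, 0.81 for Ankhd1, -0.09 for Cep295 and -0.10 to 0.45 for Wapl. Over all genes above the sum with several probes, 176 of 222 other probes (79.3%) had the same sign and 42 passed the test, with a median of 0.12 against 0.41 for the chosen probes. Below the sum these were 202 of 238 (84.9%) and 51, with medians of -0.15 and -0.35. With the sum taken on linear intensities Crebbp, Ankhd1 and Chd1 lost the call, while Syne2 and Kat6a kept it. The departures of the first 3 were larger on that scale, at 5.63, 2.69 and 1.95, and the call was lost through a wider standard error. There the summed level was small against the alloy level, which raises the departure and its standard error together. These 3 sizes are therefore uncertain.

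Regulators of mitochondria went both ways. Ppargc1a, the coactivator PGC-1 alpha, was 9.82, 10.17 and 11.19 on alloy, 9.19, 9.46 and 9.58 on manganese, 9.94, 10.04 and 10.25 on iron and 10.07, 10.28 and 10.52 on control arrays. The alloy arrays overlapped the controls and lay above all manganese arrays, giving a departure of 1.13 (95% interval 0.70 to 1.56; limma adjusted p = 0.00179), which was not called when each group kept its own spread. Tfb1m, a methyltransferase of mitochondrial ribosomal RNA, was 5.66, 6.32 and 6.92 on alloy, 6.77, 7.11 and 7.20 on manganese, 7.73, 7.83 and 7.93 on iron and 7.18, 7.40 and 7.54 on control arrays. Its alloy arrays lay under all iron and control arrays. The departure was -1.24 (adjusted p = 0.000243), but its size is uncertain, since 2 of 6 alloy arrays were above background and the authors' normalized probe table gave -0.20. Of 66 respiratory chain and ATP synthase genes Ndufa4 alone passed, at 0.20.

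Kitl, the ligand of the receptor KIT, was 7.65, 7.91 and 9.09 on alloy, 6.71, 6.97 and 7.24 on manganese, 6.85, 7.06 and 7.51 on iron and 7.15, 7.44 and 7.73 on control arrays. It was higher with the alloy by 0.64 and lower with manganese by 0.47, with a departure of 1.40 (95% interval 0.89 to 1.91; limma adjusted p = 0.00127). Btc, betacellulin, a ligand of the EGF receptor, was 8.47, 9.0 and 9.34 on alloy, 9.59, 9.75 and 9.90 on manganese, 6.68, 6.83 and 6.95 on iron and 6.71, 6.82 and 6.85 on control arrays. It rose with the alloy by 2.16 and with manganese by 2.94, a departure of -0.78 (95% interval -1.06 to -0.50; adjusted p = 0.00127). Pdgfc (0.45) and the vascular ligand Angpt2 (0.40) were above the sum.

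Selenow, a small selenoprotein, was 9.63, 10.00 and 10.32 on alloy, 10.84, 10.86 and 11.04 on manganese, 10.81, 10.87 and 11.01 on iron and 10.82, 10.97 and 11.04 on control arrays. All other arrays were higher. The alloy change was -0.96 while manganese and iron each gave -0.05, neither past the test, and the departure was -0.85 (95% interval -1.10 to -0.61; limma adjusted p = 0.00011). Ly6c1, a surface protein of the Ly6 family, was lower with the alloy by 0.62 and higher with manganese by 0.33, a departure of -1.01 (adjusted p = 0.000129).

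Hap1, the huntingtin-associated trafficking protein, was 7.88, 8.04 and 8.46 on alloy, 9.19, 9.36 and 9.46 on manganese, 7.69, 7.93 and 7.96 on iron and 7.67, 7.77 and 7.90 on control arrays. Manganese stood apart from the 3 other groups, and the alloy arrays overlapped iron and control. The departure was -1.38 (95% interval -1.60 to -1.16; limma adjusted p = 1.02e-08), and it was -1.44 without alloy replicates 1, 3 and 4. Timp3, the matrix-bound inhibitor of metalloproteinases, was 10.53, 11.60 and 12.16 on alloy, 12.22, 12.26 and 12.40 on manganese, 12.66, 12.74 and 12.85 on iron and 12.64, 12.69 and 12.87 on control arrays. Its alloy arrays lay under all others, and it departed by -0.90 (95% interval -1.37 to -0.42; adjusted p = 0.0227), but by -0.44 without those 3 arrays. Timp3 lost the call when each group kept its own spread and with no normalisation. The protease gene Adamts4 departed by -0.40 (adjusted p = 0.00127).

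In the matrix list the fibrillar collagen Col5a1 (-0.28) and tenascin Tnc (-0.35) were below the sum and the proteoglycan Vcan (0.33) and Pcolce2 (0.35), an enhancer of procollagen processing, above it, of 42 measured. Among YAP-linked genes the transcription factor Tead4 (-0.39, limma adjusted p = 0.0227) and Ptpn14 (-0.20) were below and Wwc1 (0.42, adjusted p = 0.0032), the scaffold KIBRA of the Hippo pathway, above, and the secreted target Ccn2 (-0.86, adjusted p = 0.232) did not pass. Contractile and SRF target genes had 0 of 25 past the test, with Acta2 at 0.10.

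Few genes of the cell cycle and of cell death departed with all arrays. The mitotic genes Cenpf (0.95, limma adjusted p = 0.0393), Smc2 (0.63) and Cdc25c (0.27) were above the sum, of 43 measured, though the other probes of Cenpf and Smc2 gave 0.01 and 0.04. With alloy replicates 1, 3 and 4 left out, 12 of 43 mitotic genes lay above the sum, against 685 of all 13556 genes. The list median was then 0.15, against -0.06 with all arrays. The calls of Cenpf and Cdkn1a ended in 13 and 12 of 24 omissions of 1 array. Of 45 DNA replication genes 0 passed. Among p53 targets the stress-induced Sesn2 (0.75, adjusted p = 0.00996) and Ccng1 (0.28) were above and the inhibitor of cyclin-dependent kinases Cdkn1a (-0.34, adjusted p = 0.0363) below. The BCL2 family members Bcl2l2 (-0.30) and Bcl2l11 (-0.35), which encodes BIM, were below the sum.

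The placement of stress genes depended on the alloy arrays used. The integrated stress response, in which eIF2 alpha kinases raise ATF4 and its targets, had a median change of 1.21 with the alloy and 1.25 as a sum, and of 33 genes only Sesn2 passed the departure test. Without alloy replicates 1, 3 and 4, 6 of the 33 lay below the sum and 1 above, against 790 and 685 of all 13556 genes. Their median departure was then -0.08, against 0.07 with all arrays. Trib3, a pseudokinase induced through ATF4 and CHOP, was 12.09, 12.23 and 12.49 on alloy, 12.08, 12.12 and 12.23 on manganese, 9.62, 9.78 and 9.81 on iron and 9.64, 9.73 and 9.81 on control arrays. Alloy and manganese overlapped, as did iron and control, and the departure of 0.11 had a 95% interval of -0.05 to 0.27. Ddit3, which encodes CHOP, departed by -0.16 (95% interval -0.59 to 0.28), and by -0.60 without alloy replicates 1, 3 and 4 (limma adjusted p = 6.1e-06). Atf3 departed by 0.61 with a 95% interval of -0.34 to 1.55, too wide to place it.

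Aminoacyl-tRNA synthetases, many of them ATF4 targets, had medians of 0.71 with the alloy and 0.75 as a sum, and Qars (-0.23) alone of 19 passed. Genes with large alloy changes and departures under 0.15 in size included Nupr1 (0.08, 95% interval -0.35 to 0.50), a stress-induced chromatin protein, Cox6a2 (-0.06, -0.46 to 0.34), a subunit of cytochrome c oxidase, and Taf7l (0.12, -0.52 to 0.77), whose iron and control arrays were all below background. Oasl1, an interferon-induced gene, departed by 0.13, but its interval of -1.10 to 1.36 allows a more than 2-fold gap either way. These 4 genes passed below the sum without alloy replicates 1, 3 and 4, Nupr1 at -0.36, Cox6a2 at -0.40 (limma adjusted p = 0.0122), Taf7l at -0.52 and Oasl1 at -1.10. The MAP kinase phosphatase Dusp4 departed by 0.19 (95% interval -0.27 to 0.66) and the chemokine Cxcl12 by -0.64 (-1.39 to 0.12).

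The remaining lists had few departures with all arrays. Ribosome biogenesis had 2 of 43 above the sum, Rrp1b (0.45) and Utp14a (0.76), and ribosomal proteins 2 of 51, Rps3a1 (0.38) and Rps21 (0.24). Lysosome and autophagy genes had 2 of 45, the proton pump subunit Atp6v1a (0.66) and the autophagosome protein Map1lc3b (0.49). Endoplasmic reticulum genes had 2 of 24, Dnajc3 (0.22) and Sec61b (0.34), with the chaperone Hspa5 at 0.45 (limma adjusted p = 0.402). Among heat shock proteins Hsp90aa1 (0.26) passed, of 21. Immediate early genes had Klf6 (0.54) above and Fos (-0.33) below, of 27, and ERK feedback genes had Errfi1 (-0.53) below, of 17. The antioxidant enzymes had Txnip (-0.40), the inhibitor of thioredoxin, below the sum beside Txn1, Prdx1 and Sesn2 above it. Chemokines and NF-kB targets had 0 of 30 past the test, with Ccl2 at -0.42 (adjusted p = 0.119), which passed with array weights and without alloy replicate 3. On leaving out alloy replicates 1, 3 and 4 there were 10 of 30 chemokines and NF-kB targets below the sum (median -0.16). Also below it were 8 of 27 immediate early genes, 7 of 31 growth factors and 6 of 45 lysosome and autophagy genes. Above it lay 0, 1, 3 and 2 in the same order of lists. Of all 13556 genes 790 lay below and 685 above in that setting.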

How the data were processed

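Total RNA was hybridised to Illumina mouse bead arrays, 1 array per sample. The deposited table used here holds non-normalized intensity per probe, per the file headers, without detection values. The authors' normalized tables hold log2 values and, like the authors' gene tables, served as alternatives. The tools lumi and RMA are named in the submitters' processing notes, and their roles are not given in the sources used here.

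Of 45281 probes 34885 carried 1 annotated gene, 18 several and 10378 none listed, so that 2785 of the genes tested bear only the symbol of the deposited tables. Background was corrected with normexp (offset 50) and arrays were quantile-normalised (limma 3.58.1, R 4.3.3). A probe was kept if above background, set for each array so that 1% of background-level signal exceeds it, on at least 6 of 24 arrays. The brightest of the kept probes stood for each gene (20559 probes, 13556 genes). Group means were fitted with lmFit and eBayes, and the departure is alloy minus iron minus manganese plus control. The fit was tested on simulated data. Counts and figures were made in Python 3.11.15 with Matplotlib 3.10.9, pandas 2.3.3 and NumPy 2.4.6.

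Genes named are the 12 largest departures on each side with all 6 alloy arrays on that side and an annotated symbol, 34 of 38 fixed genes (the others were not kept), the 2 smallest adjusted p in each list with at least 3 calls, and the 6 largest alloy changes with a departure under 0.15. Called members of the lists were named in addition, after their values were seen. Members, lists and fixed genes were chosen with earlier results of these data known. Alternatives covered scaling, background, filter, probe choice, the authors' tables, a replicate block, unequal spread, array weights, minimum folds, a linear sum and left-out arrays. Precision is limited by having 6 arrays a group. No batch is named in the labels.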

Additional observations from a re-analysis of the deposited data

Results flagged for a closer look

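In the 79 named genes, each of the 4 groups of 6 arrays was searched for an array far from its 5 companions, by Dixon's criterion at 95%. Of 316 groups 12 held one, fewer than the 1 in 20 that chance gives, and 2 of these were in the alloy group.

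Alloy replicate 3 was highest for Kitl, at a log2 level of 9.09 against 7.65 to 8.15 on the other alloy arrays, and for Hap1, at 8.46 against 7.88 to 8.08. Both departures passed the test without that array. Manganese replicate 1 was lowest for Tfb1m (6.77 against 7.07 to 7.20), and manganese replicate 3 highest for Ccng1 (11.77 against 11.61 to 11.63).

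Among iron arrays, replicate 1 was highest for Ccn2 (13.28 against 12.74 to 12.91), replicate 2 highest for Jmjd6 (11.98 against 11.87 to 11.90), replicate 4 highest for Elovl6 (10.46 against 10.25 to 10.30) and replicate 5 lowest for Txnrd1 (6.59 against 6.77 to 6.88). Among control arrays, replicate 1 was highest for Wapl (10.50 against 10.11 to 10.22), replicate 2 lowest for Nqo1 (8.63 against 8.78 to 8.87) and highest for Sesn2 (8.94 against 8.42 to 8.53), and replicate 3 lowest for Psme4 (12.73 against 12.82 to 12.86).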

How the results depend on the processing

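The number of departures depended on scaling and spread, while directions held: 0 of the called genes changed sign in any setting except 2 each with the mean of probes and in the authors' gene tables. Against 697 calls (338 above, 359 below), median scaling gave 159 (62, 97), no normalisation 64 (27, 37), separate spreads by group 323 (182, 141), array weights 1530 (709, 821), a 1.2-fold minimum by limma treat 27 (16, 11), calls of at least 1.5-fold 65 above and 44 below, calls of at least 2-fold 22 (12, 10) and leaving out alloy arrays 1, 3 and 4 together 1475 (685, 790). The cause was not tested. Leaving out 1 array gave 513 to 1255 calls, 263 to 566 above and 245 to 689 below, the highest without alloy replicate 5; alloy replicate 6 left out gave 1001. With the sum on linear intensities there were 689 calls (260 above, 429 below). The authors' normalized probe table gave 755 (324, 431). A replicate block gave 791 calls (398, 393); same-numbered arrays were not taken as pairs, since their deviations correlated at -0.19 at the lowest, although the median over numbers (0.01 to 0.11) exceeded that of other numbers in all 6 pairs of groups. Without alloy arrays 1, 3 and 4, Oasl1 (-1.10), Taf7l (-0.52) and Nupr1 (-0.36) fell on the other side of the sum, with limma adjusted p of 2.63e-07, 0.0149 and 0.00808. Some named genes that passed neither with all arrays nor without those 3 also changed sign. Among them were Slc7a11 (-0.13), Srxn1 (-0.15), Txnrd1 (-0.04), Atf3 (-0.42), Hspa5 (-0.05), Dusp4 (-0.29), Cxcl12 (0.14) and Ccn2 (0.01). Of 49 named genes past the test, 14 kept the call in every setting other than the minimum folds and with each array left out, 29 lost it with median scaling or no normalisation, 18 with separate spreads, 10 with the linear sum, 3 without alloy arrays 1, 3 and 4 and 5 (Ftl1, Nqo1, Cenpf, Cdkn1a, Elovl6) on leaving out 1 array. Among lists, the 14 interferon calls below the sum were 12 with median scaling, 5 with no normalisation and 44 with array weights. No normalisation shifted the median alloy change of all genes to -0.12, against -0.01.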
